A study of Mus musculus with 4 samples.

Results

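Folr2, Ccl8, Ccl24, Cd163, Mrc1, Cbr2, Pf4, Selenop, Igf1 and Lyve1 are 10 genes of tissue-resident macrophages, out of 55253 genes counted in immune (CD45+) cells from mammary glands of mice. They were chosen by their values in these same libraries, as genes higher in lactation than in gestation, so the levels in those stages are given as a description and without a test. Raw counts of unique molecular identifiers (UMIs) were summed in cells with at least 4 UMIs of C1qa, C1qb and C1qc together, the complement C1q genes that macrophages transcribe. These are called gated cells, and a level is the number of UMIs of a gene per 10000 UMIs of the gated cells of a sample. A single threshold sets the gate. In cells with 2 to 3 C1q UMIs the 10 genes together had 3.97 UMIs per 10000 (208 earlier cells) and 3.61 (521 later cells), and in cells with 4 to 5 they had 4.31 (150 earlier cells) and 11.7 (99 later cells).

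Cells were sequenced in 2 pooled droplet libraries, named for successive years and called the earlier and the later library, and hash tags (antibodies that carry a DNA barcode) told the pooled samples apart. The earlier library held Nulliparous (never pregnant), Gestation, Lactation and a sample on tag HT2. The later library held Gestation, Lactation, Involution (the gland after nursing ends), Regression, Balb/c (an inbred strain), GF (germ-free, raised without microbes) and a sample on HT2. The sheets that pair tags with names give HT2 the name Germ-free each time, but the title of the earlier library lists involution in place of germ-free, so that sample is called by its tag. The tag named Nulliparous had a total of 1 count in the later library, which therefore has no Nulliparous sample here. Each name has 1 hash-defined sample per library. The labels leave out the number of animals per tag, their age, the day of each stage, the strain of the animals other than Balb/c, and the stage of the Balb/c, GF and HT2 animals. All intervals are exact 95% intervals and cover counting error only, not the spread between animals.

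Resident macrophages live in tissues and take up dead cells, free haemoglobin, hyaluronan and sugar-coated proteins through scavenger receptors, and they release chemokines and growth factors. In the mammary gland, macrophages that lie in the stroma and beside vessels carry such receptors, while those in the epithelial layer of the ducts are known by other genes, among them Cx3cr1 and Itgax. The gland grows milk-producing epithelium in gestation, secretes milk in lactation, and loses that epithelium in involution.

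The promoters of 4 members, 1 scavenger receptor (Mrc1), the folate receptor (Folr2) and 2 chemokines (Ccl8 and Pf4), show the letters that lie where transcription of these genes starts. Each run covers 250 bases before the start site and 50 after it, on the strand of the gene, from RefSeq with build GRCm38.p6. Folr2 lies at chr7:101857141-101857440 on the minus strand, Ccl8 at chr11:82114935-82115234, Pf4 at chr5:90772185-90772484 and Mrc1 at chr2:14229164-14229463, these 3 on the plus strand. Capitals mark matches on either strand to 3 short motifs, so a match may also be printed as its reverse complement. The motif GGAAGT holds the core letters bound by ETS factors such as PU.1. The motif TGCTGA is part of the site bound by MAF factors. The motif TATAAA is the TATA box.
Folr2: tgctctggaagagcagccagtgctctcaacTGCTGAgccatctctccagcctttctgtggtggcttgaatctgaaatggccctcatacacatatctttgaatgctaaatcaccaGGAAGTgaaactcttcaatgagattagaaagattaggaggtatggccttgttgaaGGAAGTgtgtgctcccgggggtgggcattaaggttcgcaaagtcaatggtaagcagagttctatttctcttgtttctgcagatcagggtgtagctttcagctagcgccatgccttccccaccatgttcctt
Ccl8: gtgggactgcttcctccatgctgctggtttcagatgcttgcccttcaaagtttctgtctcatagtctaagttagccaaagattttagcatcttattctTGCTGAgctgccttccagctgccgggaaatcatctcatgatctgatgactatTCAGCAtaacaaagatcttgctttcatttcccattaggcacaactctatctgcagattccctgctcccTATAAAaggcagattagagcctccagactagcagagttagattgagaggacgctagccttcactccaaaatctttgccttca
Pf4: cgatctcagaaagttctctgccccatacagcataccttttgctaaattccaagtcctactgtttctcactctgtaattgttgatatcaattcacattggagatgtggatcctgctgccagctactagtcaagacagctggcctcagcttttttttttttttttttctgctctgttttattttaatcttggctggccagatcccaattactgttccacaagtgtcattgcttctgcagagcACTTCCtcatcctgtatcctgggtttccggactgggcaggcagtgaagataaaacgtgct
Mrc1: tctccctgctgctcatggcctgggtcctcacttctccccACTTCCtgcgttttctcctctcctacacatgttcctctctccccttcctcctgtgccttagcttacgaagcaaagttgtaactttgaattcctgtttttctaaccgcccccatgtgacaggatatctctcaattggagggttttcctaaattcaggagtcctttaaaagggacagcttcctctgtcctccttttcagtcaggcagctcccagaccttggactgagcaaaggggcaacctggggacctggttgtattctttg
Folr2 has 2 start sites in the table. In the window printed here its GGAAGT matches began 136 and 81 bases before the start site and its TGCTGA match 220 bases before it. The window of the other start, at chr7:101845282-101845581 on the minus strand, had a TGCTGA match 19 bases before it and no GGAAGT. The Ccl8 window had TATAAA 32 bases before its start. Of the 10 members, 8 were in the RefSeq table, with 11 windows in all, and Ccl24 and Lyve1 were not. GGAAGT was found in 5 of the 11 windows (of Folr2, Mrc1, Pf4 and Selenop) and in 23.8% of 32851 windows of all genes. The Selenop windows with a GGAAGT match overlap and share that match, so it is counted more than once. TGCTGA was found in 4 of the 11 (of Cbr2, Ccl8 and Folr2) and in 19.5% of all windows, and TATAAA in 2 (of Ccl8 and Selenop) and 13.6%. The palindrome bound by STAT factors was found in 2 (of Cbr2 and Selenop) and in 6.95% of all windows, and in no window printed here. These are matches of letters and not measured binding.

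The earlier library had 21604 cells with a median of 1599 UMIs and the later library 21177 cells with a median of 3049, and 139 cell barcodes occurred among the cells of both. Ptprc, which encodes CD45, had a UMI in 78.4% to 87.5% of the cells of the earlier samples and in 87.6% to 96.3% for the later samples. Gated cells were 4.60% to 12.8% of an earlier sample and 3.91% to 19.8% of a later one. The earlier gate held 514 Gestation cells (11.7%, interval 10.7 to 12.6) and 310 Lactation cells (12.8%, 11.5 to 14.2). The later gate held 130 (3.91%, 3.27 to 4.62) and 64 (8.17%, 6.35 to 10.3). Csf1r, the receptor for the macrophage growth factor CSF1, had a UMI in 63.8% to 73.9% of the earlier gated cells and 81.3% to 91.0% of the later ones, and Adgre1 (F4/80) in 27.2% to 44.5% and 51.2% to 72.8%. Outside the gate Csf1r was seen in 3.98% to 9.35% and 7.82% to 20.4% of cells. The hash signal of later Lactation was weak, with a median of 6 counts per cell against 13 for later Gestation and 22 to 65 for the other later samples. In gated cells alone the medians were 6 for Lactation, 12 for Gestation, 13 for GF and 20 to 61 for the rest. Comparisons of later Lactation with other later samples are given also with a stricter tag call, while its levels per gene rest on the call used throughout.

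The receptors Folr2, Cd163, Mrc1 and Lyve1 take up ligands at the cell surface. Folr2, the folate receptor beta (chromosome 7, 101839988 to 101857190), had 1.41 UMIs per 10000 in Lactation (168 UMIs, interval 1.20 to 1.64), 0.716 in HT2, 0.143 in Nulliparous and 0.0960 in Gestation (11 UMIs, 0.0479 to 0.172) of the earlier library. The Lactation interval lay above the other 3, and those of Nulliparous and Gestation overlapped. Later Folr2 levels were 6.98 in HT2, 5.53 in Regression, 4.25 in Involution, 3.73 in Lactation (143 UMIs, 3.15 to 4.4), 3.42 in Balb/c, 2.34 in GF and 1.65 in Gestation (133 UMIs, 1.38 to 1.96). Lactation there lay among Involution and Balb/c, with overlapping intervals, and Gestation was lowest.

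Mrc1, the mannose receptor CD206 (chromosome 2, 14229414 to 14332023), had 5.13 UMIs per 10000 in HT2, 2.28 in Lactation (272 UMIs, 2.02 to 2.57), 1.17 in Nulliparous and 0.332 in Gestation (38 UMIs, 0.235 to 0.455) in the earlier library. No neighbouring intervals overlapped in that order. The later levels of Mrc1 were 21.5 in HT2, 16.8 in Regression, 15.1 in Involution, 10.0 in GF, 8.56 in Lactation (328 UMIs, 7.66 to 9.54), 6.73 in Gestation (542 UMIs, 6.18 to 7.32) and 5.67 in Balb/c. Lactation and GF overlapped, as did Gestation and Balb/c.

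Cd163 encodes the scavenger receptor for haemoglobin bound to haptoglobin (chromosome 6, 124304636 to 124330529). Its earlier levels were 0.776 UMIs per 10000 in HT2, 0.470 in Lactation (56 UMIs, 0.355 to 0.610), 0.194 in Nulliparous and 0.175 in Gestation (20 UMIs, 0.107 to 0.270). HT2 and Lactation overlapped, and so did Nulliparous and Gestation. Later Cd163 was lowest in Lactation, at 1.77 (68 UMIs, 1.38 to 2.25), against 1.92 in Balb/c, 2.67 in Gestation (215 UMIs, 2.33 to 3.05), 2.90 in GF, 3.49 in Involution, 3.81 in Regression and 4.63 in HT2. Lyve1 encodes a hyaluronan receptor that is also made by lymphatic endothelium (chromosome 7, 110850607 to 110862953). Earlier counts of Lyve1 were 8 UMIs in HT2 (0.239 per 10000), 24 in Lactation (0.201, 0.129 to 0.2996), 6 in Nulliparous (0.0430) and 0 in Gestation, which allows up to 0.0322. Lyve1 in the later library had 4.05 per 10000 in HT2, 1.75 in Regression, 1.05 in Involution, 0.960 in Balb/c, 0.904 in GF, 0.571 in Gestation (46 UMIs, 0.418 to 0.762) and 0.365 in Lactation (14 UMIs, 0.200 to 0.613). HT2 stood above every other later sample, and Gestation and Lactation overlapped. The lymphatic endothelial genes Prox1 and Flt4 had 1 UMI together in the gated cells of each of earlier HT2, later Involution, later Regression and later GF, and 0 in the other 7 samples.

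Among the chemokines, Ccl8 is a ligand of the receptor Ccr8 in mice (chromosome 11, 82115185 to 82116799). It had 2.93 UMIs per 10000 in earlier Lactation (349 UMIs, 2.63 to 3.25), 0.567 in HT2, 0.151 in Nulliparous and 0.0786 in Gestation (9 UMIs, 0.0359 to 0.149). Lactation stood apart from the other 3 samples. The later library had 12.9 in Regression, 10.2 in Involution, 7.61 in HT2, 5.02 in Balb/c, 4.54 in Lactation (174 UMIs, 3.89 to 5.27), 3.87 in GF and 1.45 in Gestation (117 UMIs, 1.20 to 1.74). Here Regression was highest and Lactation overlapped with Balb/c and GF. Ccl24, or eotaxin-2, binds the eosinophil receptor Ccr3 (chromosome 5, 135569935 to 135573123). Its earlier levels were 0.520 in Lactation (62 UMIs, 0.399 to 0.667), 0.448 in HT2, 0.143 in Nulliparous and 0.0349 in Gestation (4 UMIs, 0.00951 to 0.0894), and Lactation and HT2 overlapped. Later Ccl24 levels were 2.99 in HT2, 2.92 in Regression, 1.69 in GF, 1.56 in Involution, 1.52 in Balb/c, 1.51 in Lactation (58 UMIs, 1.15 to 1.96) and 0.596 in Gestation (48 UMIs, 0.440 to 0.791). Gestation was alone below a middle group of GF, Involution, Balb/c and Lactation, whose neighbours overlapped.

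Pf4 encodes the chemokine CXCL4, best known from platelets (chromosome 5, 90772435 to 90773383). Earlier Pf4 levels were 5.04 UMIs per 10000 in HT2, 4.85 in Lactation (578 UMIs, 4.46 to 5.26), 1.76 in Nulliparous and 1.20 in Gestation (137 UMIs, 1.00 to 1.41). HT2 and Lactation overlapped above the other samples. Later Pf4 had 33.1 in HT2, 25.4 in Regression, 24.5 in Involution, 14.3 in GF, 13.1 in Gestation (1057 UMIs, 12.4 to 13.9), 11.2 in Balb/c and 10.9 in Lactation (416 UMIs, 9.84 to 12.0). Lactation was thus lowest there, with an interval that overlapped that of Balb/c but lay below that of Gestation.

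Selenop and Igf1 encode secreted proteins, a selenium carrier and insulin-like growth factor 1. Selenop (chromosome 15, 3270767 to 3280510) had 8.98 UMIs per 10000 in earlier Lactation (1071 UMIs, 8.45 to 9.54), 8.06 in HT2, 4.68 in Nulliparous and 3.35 in Gestation (384 UMIs, 3.02 to 3.70). Its later levels were 26.5 in Regression, 24.4 in Involution, 24.3 in HT2, 18.4 in Lactation (706 UMIs, 17.1 to 19.8), 18.0 in GF, 12.7 in Gestation (1022 UMIs, 11.9 to 13.5) and 12.3 in Balb/c. The ratio of the highest to the lowest level was smaller for Selenop than for any other member in both libraries, and its Lactation level was above that of Gestation in both libraries. Igf1 (chromosome 10, 87858265 to 87937047) had 0.776 in earlier HT2, 0.579 in Lactation (69 UMIs, 0.450 to 0.733), 0.265 in Nulliparous and 0.0436 in Gestation (5 UMIs, 0.0142 to 0.102). Later Igf1 levels were 3.502 in HT2, 3.45 in Regression, 2.93 in Involution, 1.93 in Lactation (74 UMIs, 1.52 to 2.42), 1.76 in GF, 1.28 in Gestation (103 UMIs, 1.04 to 1.55) and 0.738 in Balb/c. Balb/c was lowest for Igf1, below Gestation and without overlap.

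Cbr2 encodes carbonyl reductase 2, an enzyme that reduces carbonyl groups with NADPH (chromosome 11, 120729485 to 120732025). It had 1.28 UMIs per 10000 in earlier Lactation (153 UMIs, 1.09 to 1.504), 0.806 in HT2, 0.344 in Nulliparous and 0.183 in Gestation (21 UMIs, 0.113 to 0.280). Later Cbr2 had 7.39 in HT2, 4.32 in Regression, 3.42 in Involution, 2.20 in Balb/c, 2.17 in Lactation (83 UMIs, 1.73 to 2.69), 2.01 in GF and 1.85 in Gestation (149 UMIs, 1.57 to 2.17). The last 4 of these did not separate from their neighbours. All positions are those of GRCm38.p6, and all 10 genes are protein-coding.

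**Figure D1:**
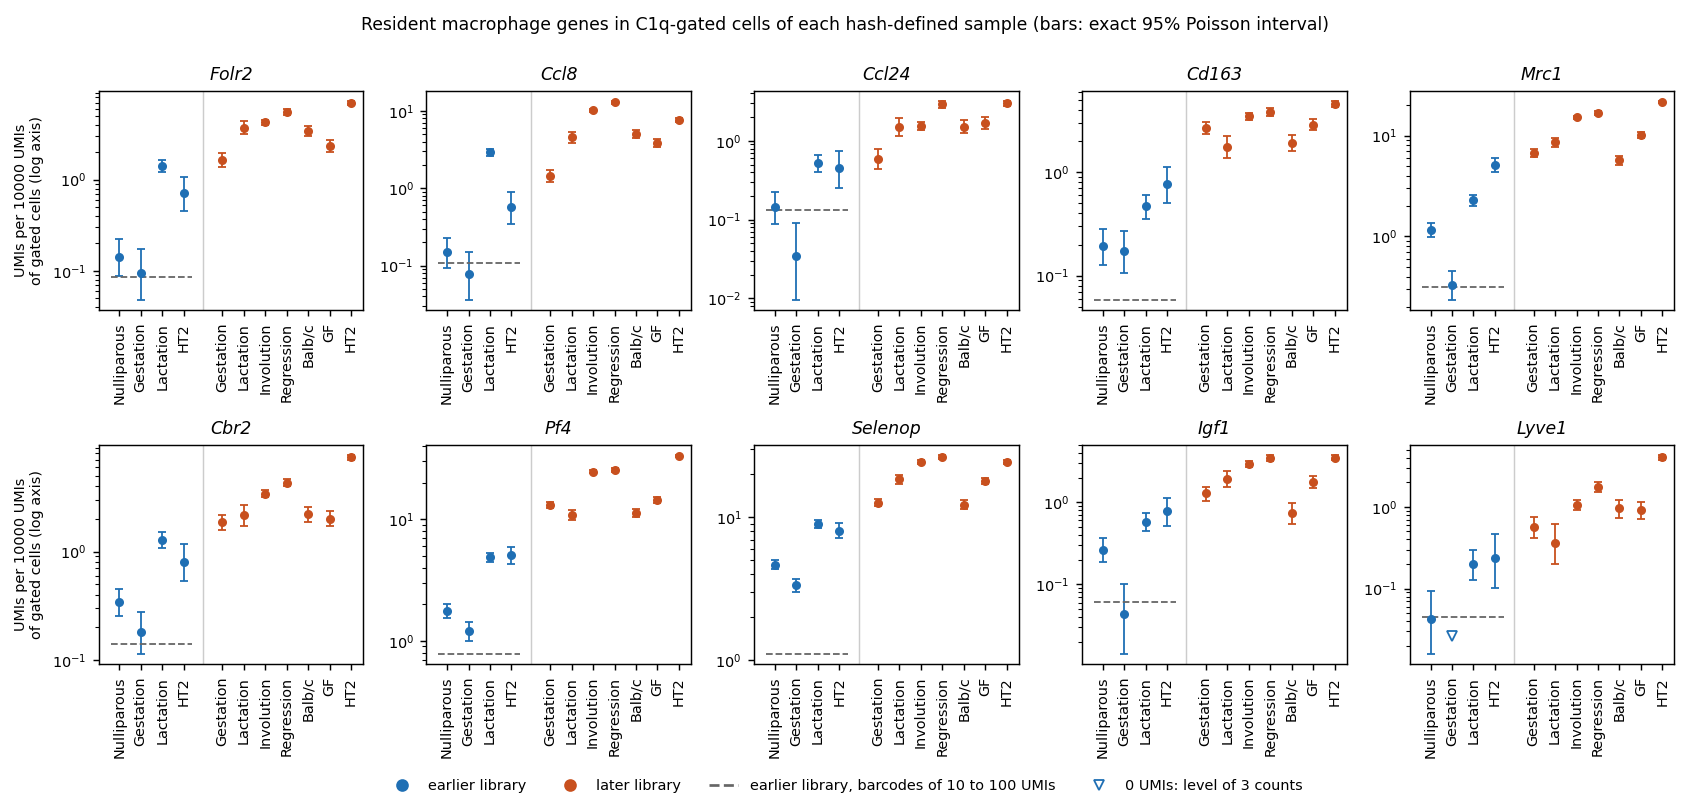
Level of each gene in the gated cells of each hash-defined sample, as UMIs per 10000 UMIs on a log axis, with exact 95% Poisson intervals, for the 4 earlier and the 7 later samples. In the earlier library Gestation was lowest for all 10 genes, and in the later library HT2 or Regression was highest for all 10.

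For Lactation over Gestation, the members were all higher in the earlier library and split in the later one. The earlier fold was 37.3 for Ccl8 (interval 19.4 to 82.2), 14.9 for Ccl24 (5.53 to 56.4), 14.7 for Folr2 (7.996 to 29.97) and 13.3 for Igf1 (5.42 to 42.1). Cbr2 was 7.002-fold higher (4.42 to 11.6), Mrc1 6.88-fold (4.89 to 9.93), Pf4 4.05-fold (3.36 to 4.92), Cd163 2.69-fold (1.59 to 4.73) and Selenop 2.68-fold (2.38 to 3.02). Lyve1, with 0 UMIs in Gestation, was 7.69-fold higher with that sample set to a floor of 3 counts. The lower limit of its exact interval was 5.78-fold, with no upper limit. All 10 members were thus at least 2-fold higher, with a median log2 ratio of 2.88 (Lyve1 at its floor). Of 7771 genes 3.86% passed that fold, and their median log2 ratio was -0.06. The members were selected on this contrast, so nothing is read from the count. Against Nulliparous, in the same earlier Lactation cells, 8 of 10 were at least 2-fold higher, beside 3.76% of 7998 genes, and the log2 ratios of Mrc1 (0.96) and Selenop (0.94) were just under that fold.

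Later, 3 members passed 2-fold: Ccl8 at 3.12-fold (2.46 to 3.98), Ccl24 at 2.54-fold (1.70 to 3.80) and Folr2 at 2.26-fold (1.77 to 2.88), beside 3.36% of 6853 genes. Igf1 was 1.51-fold higher (1.10 to 2.05), Selenop 1.45-fold (1.32 to 1.60) and Mrc1 1.27-fold (1.11 to 1.46), and the interval of Cbr2 spanned equality (1.17-fold, 0.884 to 1.54). On the log2 scale the Lactation to Gestation ratio was -0.59 for Cd163 (-1.005 to -0.19), -0.27 for Pf4 (-0.44 to -0.11) and -0.65 for Lyve1 (-1.62 to 0.24). The median log2 ratio over the members was 0.44, and that of all genes 0.01. These later values depend on how the weak Lactation tag was called. With a stricter positive quantile of the tag call than 0.99, 17 gated Lactation cells were left, all 10 members were lower in Lactation than in Gestation and the median was -1.04. Without the gate, over all cells of a sample, all 10 were higher in later Lactation, 5 of them at least 2-fold, with a median of 1.05. Gated cells were 3.91% of later Gestation cells and 8.17% of later Lactation cells, and the part of this in the ungated ratios was not tested. In the earlier library all 10 passed 2-fold at the stricter quantile and without the gate, with medians of 3.31 and 2.89. The share of all genes past 2-fold was not computed in either setting.

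**Figure D2:**
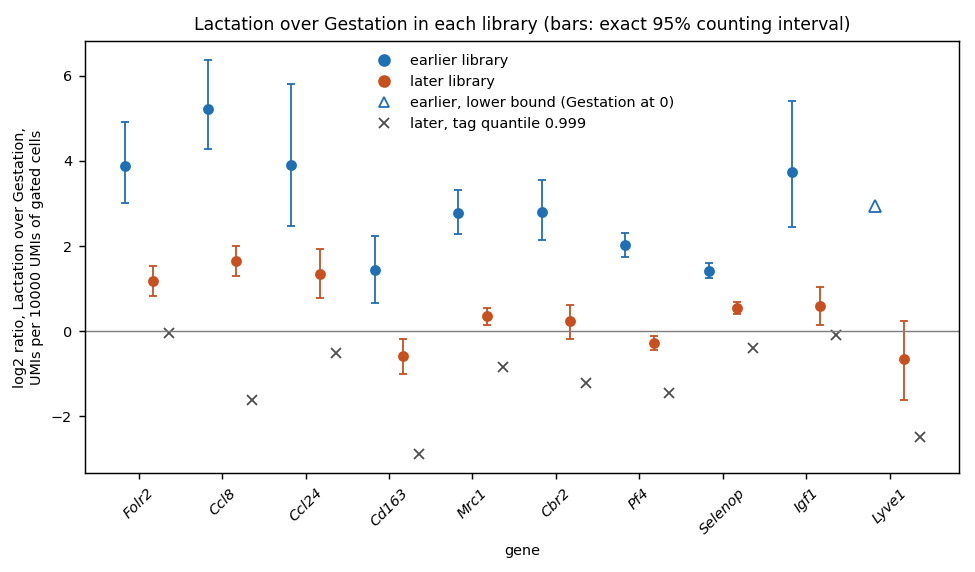
The log2 ratio of Lactation over Gestation per gene and library, in UMIs per 10000 UMIs of gated cells, with exact 95% counting intervals; the earlier Lyve1 value is a lower bound. Every earlier ratio lies above 1 on this scale, while the later ratios run from -0.65 (Lyve1) to 1.64 (Ccl8).

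Several other measures differed between the same samples, and their part in these ratios was not tested. The median C1q count per gated cell was 14 UMIs in earlier Gestation and 25.5 in earlier Lactation, then 40 and 35.5 in the later samples. The 10 genes together had 4.31 UMIs per 10000 in earlier cells with 4 to 5 C1q UMIs and 15.5 in those with 10 or more. In later cells these levels were 11.7 and 93.8. The gated cells of earlier Gestation had a median of 1624 UMIs and those of earlier Lactation 2939.5. After each gated cell was thinned to 1000 UMIs, 9 of the 9 members with a value were at least 2-fold higher in earlier Lactation, with a median log2 ratio of 2.71. All 7 milk protein genes were counted, together 25.7 UMIs per 10000 in earlier Gestation, 7.84 in earlier Lactation, 9.37 in later Gestation and 13.4 in later Lactation. The 4 globin genes summed to 35.7 and 56.3 in later Gestation and Lactation and to at most 4.81 in every other sample, and 1 cell held 99.1% and 99.6% of them. The sum of the 5 neutrophil genes was 1.02 and 3.42 in the earlier samples and 1.37 and 8.20 in the later ones, with Mmp8 at 0 and 93.9% of the sum in 1 cell in later Lactation. The 5 T cell genes summed to 1.57 and 1.12, then 2.88 and 1.49. Because counts were summed over gated cells, a smaller share of cells that hold these transcripts and fewer transcripts per cell cannot be told apart in the levels alone.

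Lactation was not the stage of highest level in the later library. Involution, Regression and HT2 each exceeded Lactation for all 10 members. For Folr2 and Ccl24 the log2 ratio of Involution over Lactation was small (0.19 and 0.04), and the intervals of the levels overlapped. In Involution 3 members (Ccl8, Pf4 and Lyve1) were at least 2-fold above Lactation, where 7.32% of 8701 genes were. Regression had 4 (Ccl8, Cd163, Pf4 and Lyve1), beside 9.12% of 8088 genes, and HT2 had 5 (Cd163, Mrc1, Cbr2, Pf4 and Lyve1), beside 10.2% of 8836 genes. All these ratios share the Lactation sample with the weak tag. The median log2 ratio over the members was 0.74 for Involution, 0.98 for Regression and 1.16 for HT2. Over all genes compared it was -0.009, 0.05 and 0.13. With the stricter tag call, which left 17 Lactation cells, the medians over the members were 2.26, 2.57 and 3.01, with all 10 members higher in each. Of the 10 members, HT2 was highest for 8 and Regression for Ccl8 and Selenop. The lowest sample was Gestation for Folr2, Ccl8, Ccl24 and Cbr2, Lactation for Cd163, Pf4 and Lyve1, and Balb/c for Mrc1, Selenop and Igf1. The summed level of the 10 genes was 116 in HT2, 103 in Regression, 90.9 in Involution, 57.8 in GF, 53.9 in Lactation, 44.97 in Balb/c and 42.6 in Gestation. In the earlier library the sums were 23.5 in Lactation, 22.6 in HT2, 8.89 in Nulliparous and 5.49 in Gestation. The names Gestation, Lactation and HT2 had higher sums in the later than in the earlier library, which differed in year and depth, so levels were not compared across libraries.

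Free RNA was measured in the earlier library from 55135 barcodes with 10 to 100 UMIs each, 2925378 UMIs in all. Per 10000 UMIs these held 0.0855 of Folr2 (interval 0.0553 to 0.126), 0.109 of Ccl8, 0.133 of Ccl24, 0.318 of Mrc1 (0.257 to 0.389), 0.140 of Cbr2 and 0.0615 of Igf1. The earlier Gestation levels of Folr2, Ccl8, Mrc1, Cbr2 and Igf1 overlapped these intervals, and that of Ccl24 lay below its interval of 0.0948 to 0.182. How much of the level in gated cells was free RNA was not tested. Lymphocyte-marked cells of earlier Gestation, with at least 2 UMIs of T or B cell markers and outside the gate, held 0.0129 of Folr2 (4 UMIs, 0.00352 to 0.0331), 0.0485 of Mrc1 (15 UMIs, 0.0271 to 0.0799), 0.00323 each of Ccl8 and Cbr2 (1 UMI) and 0 UMIs of Ccl24 and Igf1. Its gated cells held 0.0960, 0.332, 0.0786, 0.183, 0.0349 and 0.0436 of Folr2, Mrc1, Ccl8, Cbr2, Ccl24 and Igf1. Cd163, Pf4 and Selenop had 0.0581 (0.0339 to 0.0930), 0.776 (0.678 to 0.884) and 1.11 (0.9902 to 1.23) in free RNA, below their levels in gated Gestation cells. In earlier Lactation all 10 members were above their level in free RNA.

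Most UMIs of the members lay in gated cells, which made up 8.65% of earlier cells with 14.4% of their UMIs, and 9.70% of later cells with 14.7%. The earlier gate held 98.03% of Ccl8 UMIs, 94.9% of Folr2, 93.5% of Pf4, 92.7% of Lyve1 and 90.9% of Cbr2. It held less of Igf1 (77.8%), Ccl24 (72.7%), Selenop (61.6%), Cd163 (56.8%) and Mrc1 (48.9%). Later shares ran from 80.0% for Selenop to 95.4% for Pf4. Mrc1 was seen outside the gate in 0.750% to 4.30% of earlier and 2.44% to 7.04% of later cells thinned to 1000 UMIs, and Selenop in 4.61% to 8.17% and 6.11% to 12.2%.

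The share of cells with a UMI was read against cells outside the gate with at least 2 UMIs of T or B cell markers, which should lack these transcripts, after thinning both to 1000 UMIs per cell. In earlier Lactation Folr2 was found in 8.42% of thinned gated cells (11.9% before thinning), and in earlier Gestation in 0.985% (1.95%), against 0% to 0.259% of the lymphocyte-marked cells of that library. Mrc1 was found in 15.5% and 2.96% of thinned gated cells of these samples (31.6% and 4.67% before thinning), against 0.146% to 0.777%. In the later library Mrc1 ranged from 22.4% (Balb/c) to 77.8% (HT2) of gated cells, against 1.06% to 2.79% of lymphocyte-marked cells. Selenop had the highest background, 4.17% to 6.09% and 5.95% to 7.18% of lymphocyte-marked cells, against 24.6% to 46.5% and 39.7% to 79.7% of gated cells. Median depths before thinning were 1161 to 1977 UMIs in earlier and 2222.5 to 2751 in later lymphocyte-marked cells, and 1624 to 2939.5 and 4305 to 5238.5 in gated cells.

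**Figure D3:**
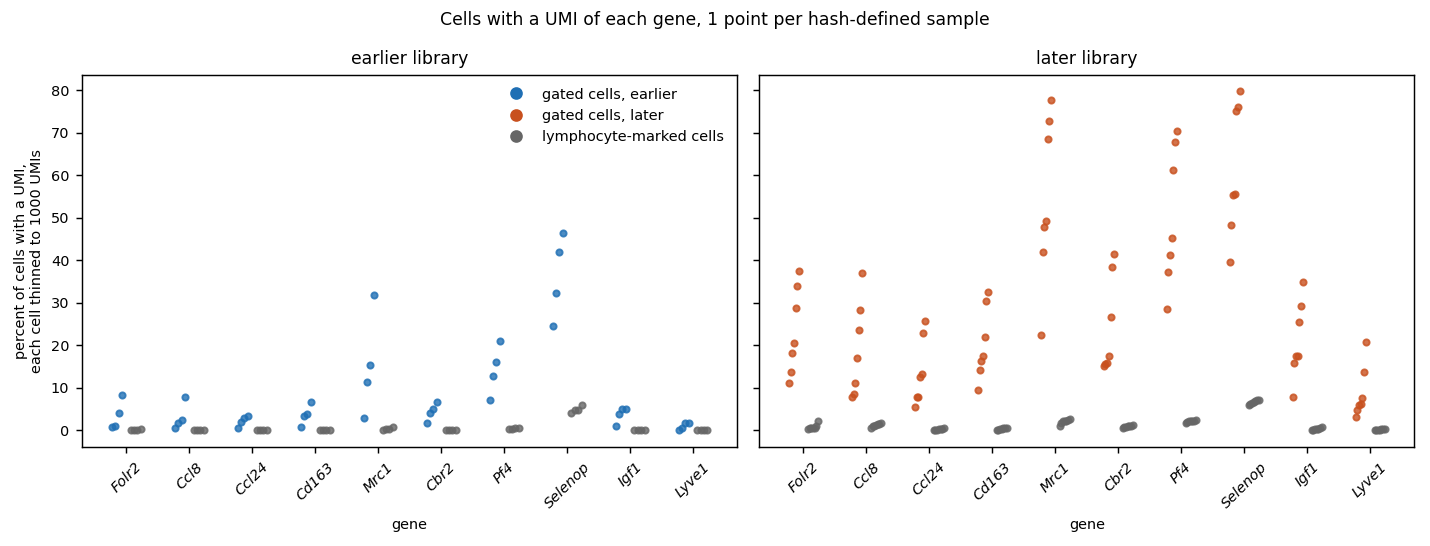
Percent of cells with a UMI of each gene after thinning to 1000 UMIs per cell, 1 point per hash-defined sample, for gated cells and for lymphocyte-marked cells (grey), earlier library left and later library right. Gated cells of later samples reach 77.8% for Mrc1 and 79.7% for Selenop, and lymphocyte-marked cells stay at or below 7.18%.

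In earlier Lactation, UMIs of the chemokines Ccl8 and Ccl24 were held by few cells. Ccl8 in earlier Lactation came from 33 of 310 gated cells, with 10.6 UMIs per positive cell, and the top cell held 75 of the 349 UMIs (21.5%). Earlier Gestation had 2 positive cells of 514, and 1 of them held 55.6% of the 9 UMIs. In later Lactation 12 of 64 cells were positive at 14.5 UMIs each, and the top cell held 63 of 174 UMIs (36.2%). The later Regression sample had 121 positive cells of 241, at 14.2 UMIs each, and its top cell held 251 UMIs (14.6%). Ccl24 in earlier Lactation was found in 25 cells, and 1 cell held 24 of its 62 UMIs (38.7%). With the top cell of each gene left out in each sample, all 10 members were still at least 2-fold higher in earlier Lactation than in Gestation, with a median log2 ratio of 2.94.

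Over all gated cells of each library, Folr2, Mrc1, Pf4 and Selenop were found in more cells than Ccl8 and Ccl24. Lyve1 was found in fewer, 21 against 51 each in the earlier library and 292 against 501 and 471 in the later one. Folr2 in earlier Lactation had 37 positive cells of 310 with 4.54 UMIs each, and the top cell held 9.52%, while earlier Gestation had 10 of 514 with 1.10 each. Mrc1 had 98 positive cells with 2.78 UMIs each in earlier Lactation and 24 with 1.58 in Gestation, at the median depths of 2939.5 and 1624 UMIs. Pf4 had 85 cells with 6.80 and 58 with 2.36, and Selenop 225 with 4.76 and 194 with 1.98. After thinning to 1000 UMIs the UMIs per positive cell were 1.59 and 1.67 for Mrc1, 2.00 and 1.00 for Folr2 (4 UMIs in Gestation), 3.0 and 1.86 for Pf4 and 2.20 and 1.48 for Selenop. Later Pf4 had 39 of 64 Lactation cells positive (60.9%) with 10.7 UMIs each and 69 of 130 Gestation cells (53.1%) with 15.3. Cd163 had 12 of 64 (18.8%) with 5.67 and 27 of 130 (20.8%) with 7.96. For both genes later Lactation had fewer UMIs per positive cell than later Gestation, and for Pf4 the share of positive cells was not lower. With the stricter tag call Pf4 had 6 of 17 Lactation cells positive (35.3%) with 9.17 UMIs each and 53 Gestation cells (52.5%) with 12.6, and Cd163 had 3 (17.6%) with 1.33 and 21 (20.8%) with 6.24.

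Counting members per cell described how they occurred together. Of gated cells thinned to 1000 UMIs, 2.71% had 3 or more of the 10 members in earlier Gestation (11 of 406, interval 1.36 to 4.80), 9.20% in Nulliparous (6.34 to 12.8), 13.8% in Lactation (41 of 297, 10.1 to 18.3) and 17.6% in HT2 (11.3 to 25.7). In the later library the share was 21.6% in Balb/c, 32.5% in Gestation (41 of 126, 24.5 to 41.5), 36.5% in Lactation (23 of 63, 24.7 to 49.6), 40.3% in GF, 59.8% in Involution (54.3 to 65.1), 69.6% in HT2 (64.4 to 74.4) and 70.0% in Regression (63.6 to 75.9). Lactation and Gestation overlapped in the later library, and Involution, HT2 and Regression lay above both. With the stricter tag call, later Lactation had 3 of 17 such cells (17.6%, 3.80 to 43.4) and later Gestation 27 of 98 (27.6%, 19.0 to 37.5), in another draw of the thinning. Cells with 3 or more members, which are selected on detection, held 9.36 to 13.4 member UMIs in the earlier samples and 15.9 to 19.3 in the later ones. In the earlier library 70.9% of thinned gated Gestation cells and 44.8% of Lactation cells had no UMI of any member, and in the later library 34.9% and 33.3% did.

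**Figure D4:**
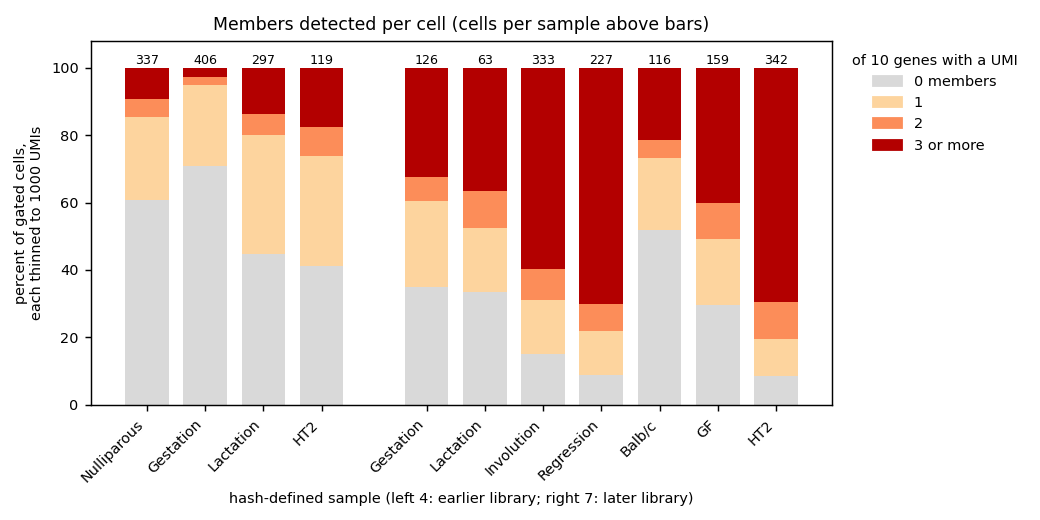
Percent of gated cells, each thinned to 1000 UMIs, with 0, 1, 2 or 3 and more of the 10 genes detected, in each hash-defined sample, with the number of cells above each bar. The share with 3 or more runs from 2.71% (earlier Gestation) to 70.0% (later Regression).

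Across thinned gated cells, Pearson's r of the log counts was positive for each of the 45 pairs of members in both libraries. It had a median of 0.29 in the earlier library (0.10 to 0.57, 1159 cells) and 0.35 in the later library (0.13 to 0.63, 1366 cells). Mrc1 with Pf4 was high in both, at 0.55 and 0.63, and Pf4 with Selenop at 0.53 and 0.63, while Ccl8 with Ccl24 was low in both, at 0.10 and 0.18. Cells of a library share its depth, its free RNA and their sample, so these are descriptions. Among 2109 other genes found in at least 5% of thinned gated cells of each library, the 10 most like the summed members were F13a1 (mean r 0.56), Maf (0.55), Mgl2 (0.51), Dab2 (0.49), Clec10a (0.47), Ctsb (0.44), Itm2b (0.43), Wwp1 (0.43), Grn (0.42) and Fcgrt (0.42). F13a1 encodes a subunit of clotting factor XIII, Maf a transcription factor, Mgl2 and Clec10a C-type lectins and Ctsb the lysosomal protease cathepsin B. Within single samples the r of F13a1 with the members ran from 0.39 to 0.52 among earlier samples and from 0.50 to 0.76 among later samples. The lowest r within an earlier sample was smaller for the others. It was 0.079 for Fcgrt, 0.11 for Grn, 0.14 for Itm2b and 0.20 for Ctsb, and from 0.26 (Maf) to 0.33 (Mgl2) for the rest. Within later samples the lowest r of these genes was 0.33, for Wwp1.

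Lists of other genes were compared between Lactation and Gestation with edgeR's quasi-likelihood test on summed gated cells of both libraries, with the year as a block, 2 samples per stage and 1 residual degree of freedom. The animals behind each sample are not described, so p-values refer only to the spread between these samples. With 1 residual degree of freedom, the spread used for a gene was mostly borrowed across genes (12.47 prior degrees of freedom). Of 8197 genes 5 were called at an adjusted p under 0.05 (0.061%), all higher in Lactation, and 442 had an unadjusted p under 0.05. None of the 5 met the rule for named genes. They were the neutrophil genes S100a8 and S100a9 and the antibody genes Ighg2c, Ighv6-6 and Igkv12-44, named here after their values were seen. The calls of the antibody genes rest on the earlier library. In the later library Ighg2c had 2 UMIs in Gestation and 0 in Lactation, and Ighv6-6 and Igkv12-44 had 0 in both. A single cell held 98.3% of the Ighg2c UMIs of earlier Lactation and 97.9% of the S100a8 UMIs of later Lactation. DESeq2's Wald test called 2 genes, both among these 5, so it called no gene of the lists below other than S100a8 or S100a9. No call is used for the members, which were chosen on this contrast.

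The list closest to the members holds 17 other genes of resident macrophages. Of these 16 were tested and none was called, 12 had an unadjusted p under 0.05 and 12 were higher in Lactation in both libraries (1885 of 8197 among all genes tested), with a median log2 difference of 1.08 against 0.01 over all genes tested. Fcna, a ficolin, had a log2 difference of 2.22 (SE 0.49, edgeR adjusted p = 0.25), from 1 and 52 UMIs in earlier Gestation and Lactation and 39 and 48 in the later ones. F13a1 had 1.67 (SE 0.43, edgeR adjusted p = 0.36), from 37 and 293 UMIs and then 306 and 221. Gated cells had 804992 UMIs in later Gestation and 383128 in later Lactation. Scaled to these totals, the later log2 ratio of F13a1 was 0.60. Ccl9, a chemokine, had 1.07 (SE 0.26, edgeR adjusted p = 0.28). The sum of these genes was 6.61 UMIs per 10000 in earlier Gestation and 18.9 in earlier Lactation, 39.1 and 50.8 in the later samples (34.7 and 22.2 with the stricter tag call), and 70.6, 91.8 and 116 in Involution, Regression and later HT2. This list was made with results of these data known and is not independent of the members.

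No gene of the other macrophage lists was called. The list of ductal-type macrophage genes had 14 of 15 tested, 5 with an unadjusted p under 0.05, and a median log2 difference of -0.20. Within it Mmp12, a matrix metalloprotease, had 876 and 210 UMIs in earlier Gestation and Lactation and 263 and 336 in the later ones (edgeR adjusted p = 0.9989). The pan-macrophage list had 15 of 15 tested, 0 with an unadjusted p under 0.05, and a median of 0.03. It includes C1qa, C1qb and C1qc, whose levels are constrained because they set the gate. For monocyte genes 7 of 9 were tested (1 unadjusted, median -0.20), for MHC class II genes 7 of 7 (0 unadjusted, median -0.04) and for dendritic cell genes 3 of 7 (0 unadjusted, median 0.09). Among the receptors and binding partners of the members, 12 of 16 were tested, none was called, 1 had an unadjusted p under 0.05 (Ccr1, -0.55 on the log2 scale) and the median was 0.04. Ccr8 and Ccr3, the receptors of Ccl8 and Ccl24, were not among the 12 genes with enough counts.

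Markers of other cell types in the gate were tested in the same fit. Of 4 neutrophil genes tested of 5, S100a8 rose by a log2 difference of 2.77 (SE 0.28, edgeR adjusted p = 0.0015) and S100a9 by 2.41 (SE 0.30, edgeR adjusted p = 0.0072), both held mostly by few cells, and the list's median was 1.78. All 5 T cell genes were tested with none called, 2 unadjusted, and a median of -0.58, each lower in Lactation in both libraries. None was called by edgeR among 2 of 4 B cell genes (0 unadjusted, median 0.003), 2 of 4 NK cell genes (0 unadjusted, -0.46), 2 of 5 epithelial genes (1 unadjusted, -0.42) and 1 of 8 fibroblast and endothelial genes (0 unadjusted, -0.36). None was called among 4 of 4 erythroid genes (2 unadjusted, 0.54) and 7 of 7 milk protein genes (1 unadjusted, -0.64) either. Of the 4 mast cell genes none had enough counts to be tested.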

How the data were processed

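The members and the gene lists were chosen with earlier results of these data known. The analysis used raw counts as deposited by the authors: UMIs by gene and barcode, and hash tag counts by barcode. Libraries were made with the 10x Genomics 3' chemistry, per the labels' protocols. Cell Ranger 6.1.0 and mm10 stand in the submitters' processing notes, and Cell Ranger 4 in the earlier matrix, per the file headers. The earlier matrix lists 1347735 barcodes, and the later one lists 21632, each with at least 500 UMIs. Sheets that the authors deposited pair tags with sample names.

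Barcodes under 500 UMIs, under 300 genes or above 10% of mitochondrial UMIs were dropped. Tag calls came from HTODemux (Seurat 5.3.0, positive quantile 0.99), cells with 1 tag were kept, and Scrublet (scanpy 1.11.5, Python 3.11.15) calls, 7.86% of earlier and 6.87% of later cells, were removed. The libraries were matched on 55253 unique gene symbols. Levels have exact Poisson intervals, shares exact Clopper-Pearson intervals, and ratios exact conditional intervals. A ratio against 0 counts used a floor of 3 counts in the sample. Genes with at least 20 UMIs in both samples together were the background for ratios. Summed counts of gated cells were tested with edgeR 4.0.16 (R 4.3.3; TMM scaling, filterByExpr, Benjamini-Hochberg adjustment), after the steps were tested on simulated data. Same-stage samples of the 2 years were blocked by year. The text names all members, the genes of the lists, the 10 genes most like the members and, by rule, called genes that moved the same way in both libraries, had at least 20 UMIs and had under 30% of them in 1 cell. Alternatives were other gates, tag calls, depth limits, scalings, filters and DESeq2 1.42.0. Promoters came from RefSeq tables for GRCm38.p6. No genome or protein sequence was used here.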

Additional observations from a re-analysis of the deposited data

Results flagged for a closer look

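For 3 members the Lactation to Gestation ratio was below 1 in the later library and above 1 in the earlier one. The log2 ratio of Cd163 was -0.59 in the later library and 1.43 in the earlier library. That of Pf4 was -0.27 and 2.02. For Lyve1 it was -0.65, with an interval that spans 0. Its earlier value was 2.94 (lower limit 2.53), with the 0 UMIs of Gestation set to a floor of 3 counts. With 1 sample per stage in each library, the difference between libraries was not tested. The later values rest on 64 Lactation cells with a weak tag, whose part in the difference was not tested.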

How the results depend on the processing

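In the earlier library every member with a value was at least 2-fold higher in Lactation than in Gestation under all 11 alternatives, with medians from 2.71 to 3.31 on the log2 scale. In the later library the count of 3 such members and the median of 0.44 changed. At the stricter tag quantile the count was 0 and the median -1.04. The log2 ratios were then -0.0499 for Folr2, -1.62 for Ccl8, -0.51 for Ccl24, -0.85 for Mrc1, -1.22 for Cbr2, -0.39 for Selenop and -0.0818 for Igf1, with Cd163 at -2.88, Pf4 at -1.44 and Lyve1 at -2.49. The medians of Involution, Regression and HT2 over Lactation were then 2.26, 2.57 and 3.01, an alternative added after seeing the data. With no gate, a setting chosen after seeing the data, the count was 5 and the median 1.05. The ungated ratios were 0.19 for Cd163, 0.50 for Pf4 and 0.21 for Lyve1, and no share of all genes was computed there. A gate at 2 UMIs gave a later median of 0.68, and thinning a later Mrc1 ratio of -0.24, which depends on the draw, since the mean expected over draws is 0.13. Of 219 member ratios over the alternatives, 11 changed sign, all in the later library.

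The 5 genes called by edgeR became 0 with a gate at 2 UMIs (515 at an unadjusted p under 0.05), with doublet calls kept (414), with the highest tag at a margin of 3 (342), and in cells with at least 1000 UMIs (403). They became 1 with a gate at 8 UMIs, 2 with a gate per 10000 UMIs, 2 with DESeq2's Wald test, 16 at the stricter tag quantile, 23 with DESeq2 size factors, 63 with no gate and 79 with no filter on low counts. Without the replicate block for the year, which pairs samples by library, the count was 0 (112 unadjusted). Leaving out 1 sample at a time, which needs the fit without the block, gave 0 to 107, and the 107 came without later Gestation. In those fits the lone sample of a stage is assumed to vary like the other stage. The cause of these changes was not tested. Depth limits Lyve1, Ccl24 and Igf1 in earlier Gestation, with 0, 4 and 5 UMIs, and later Lactation, with 64 gated cells.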
